A study of Mus musculus with 93 samples.

Results

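The 9 genes described here (Spry1, Spry2, Spry4, Spred1, Spred2, Dusp4, Dusp6, Etv4 and Etv5) are genes that respond to fibroblast growth factor (FGF) signaling through the kinase ERK, and most of them feed back on it. They are defined by name as members of this pathway, a rule that uses no measured value, and all 9 are among the 24514 genes of the count table. RNA was sequenced from wells that each held 10 sorted cells, either from mouse embryos or from spheroids of mouse embryonic stem cells (mESCs) patterned into precardiac tissue. Both sources carried Hcn4-GFP, Tbx1-Cre and Ai9. GFP+ cells express a reporter of Hcn4, used as a mark of the first heart field, and RFP+ cells carry the permanent label that Tbx1-Cre leaves in the Tbx1 lineage, used as a mark of the second heart field.

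Embryo wells comprised 5 GFP+ and 4 RFP+ wells. Their titles read embryonic day 8.5 and the dissection protocol reads day 7.75. Spheroid wells comprised 38 GFP+ and 46 RFP+ wells at day 5.5, from mESCs derived from blastocysts of the same genotype and exposed to Activin A, Bmp4 and Wnt proteins, singly or combined, during a 40-hour induction. The stem cells had been kept in medium with a MEK inhibitor (PD98059) or ESGRO before differentiation. Ai9 marks every descendant of a cell that once expressed Tbx1-Cre, so RFP does not report current Tbx1 expression. The comparisons below share these groups, so they are not independent of one another. No label ties a well to an embryo or a differentiation, so n counts wells, and the p-values measure the spread between wells, which may be technical.

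When FGF binds its receptor, the RAS to RAF to MEK to ERK cascade is switched on, and ERK turns on genes that restrain the same cascade. Sprouty (Spry) and Spred proteins act on RAS and RAF, Dusp phosphatases remove the activating phosphates from ERK, and Etv4 and Etv5 are ETS transcription factors of the PEA3 group that carry FGF signals to further genes. In the early heart, FGF signaling is known for its part in the second heart field and the pharyngeal region.

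Counts were expressed as CPM, the usual unit of reads scaled to a common library total, after TMM, a normalization that equalizes the bulk of genes between libraries. Wells held from 6288 to 5658882 reads on genes, the lowest being the spheroid GFP+ well C9, which was kept. Embryo GFP+ wells had reads on fewer genes (6189 to 8302) than embryo RFP+ wells (10263 to 13052). Hcn4 averaged 14.9 ± 16.7 CPM (SD, n = 5) in embryo GFP+ wells and had a read in 1 of 4 embryo RFP+ wells, whereas Tbx1 had no read in any embryo GFP+ well and averaged 3.94 ± 3.54 CPM (SD, n = 4) in embryo RFP+ wells. The summed level of 16 cardiomyocyte genes was 20654 to 57325 CPM in embryo GFP+ wells and 1311 to 2495 in embryo RFP+ wells. In spheroid GFP+ wells the same sum ran from 0 to 1513 CPM with a median of 88.2, so its upper end reached the embryo RFP+ range while every spheroid GFP+ well lay below the embryo GFP+ wells. Spheroid RFP+ wells filled plate columns 1 to 6, spheroid GFP+ wells columns 7 to 11 and embryo wells columns 11 and 12, so group and plate column cannot be told apart.

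Dusp6 and Etv5 are shown first with sequence, because they were the pair that was higher in embryo than in spheroid RFP+ wells with no overlap. Dusp6 (chr10:99263231-99267489, plus strand) encodes a phosphatase of ERK, and Etv5 (chr16:22381309-22439719, minus strand) an ETS factor. RefSeq (GRCm38.p6) gave a start site for 6 of the 9 genes (Spry1, Spry2, Spred1, Spred2, Dusp6 and Etv5), with more than one for Etv5. The 250 bases before each start were searched on both strands for CCGGAA, a form of the site bound by ETS factors. They were also searched for TGAATGAA and TGAATGGA, 2 of the octamers bound by Capicua, a repressor that ERK relieves. None of the 6 genes held any of these letters there. Apart from the shorter TGAATG given below, other forms of these sites were not searched, so their absence is not shown. Of 32851 such windows genome-wide, 12.0% held CCGGAA, 1.08% TGAATGAA and 1.01% TGAATGGA. The shorter TGAATG that both octamers contain was searched after the windows had been read, and occurred in 2 of the 6 genes, Dusp6 and Etv5, and in 10.9% of all windows. Capitals mark TGAATG or its reverse complement, and the sequences are given 5′ to 3′ on the gene's strand.
Dusp6 upstream, chr10:99262981-99263230: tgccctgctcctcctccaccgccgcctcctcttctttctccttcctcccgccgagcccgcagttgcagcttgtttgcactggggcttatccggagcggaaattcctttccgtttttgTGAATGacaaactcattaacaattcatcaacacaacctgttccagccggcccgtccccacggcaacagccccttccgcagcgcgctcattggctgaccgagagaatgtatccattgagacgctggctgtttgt
Etv5 upstream of the inner start, chr16:22438369-22438618: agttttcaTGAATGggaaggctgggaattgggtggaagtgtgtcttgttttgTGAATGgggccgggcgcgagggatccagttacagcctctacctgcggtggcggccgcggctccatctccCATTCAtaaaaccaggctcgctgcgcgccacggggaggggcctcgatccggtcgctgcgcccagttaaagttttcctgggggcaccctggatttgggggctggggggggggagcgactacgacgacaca
Etv5 upstream of the outer start, chr16:22439571-22439820: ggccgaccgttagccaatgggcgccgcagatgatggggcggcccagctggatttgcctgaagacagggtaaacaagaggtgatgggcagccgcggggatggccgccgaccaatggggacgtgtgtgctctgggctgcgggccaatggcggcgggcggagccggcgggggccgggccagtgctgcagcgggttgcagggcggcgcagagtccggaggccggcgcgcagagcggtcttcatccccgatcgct
The first window held the letters once, the second 3 times and the third, which overlaps the 5′ end of the GENCODE gene, not at all. A match describes letters in a window and shows no binding.

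As CPM divided by the kilobases of exon (RPKM; GENCODE M21, exons of all isoforms joined), Dusp6 had the highest level of the 9 genes in every group. In spheroid RFP+ wells it averaged 25.4 ± 8.06 RPKM (SD, n = 46). Spry2 (16.6 ± 4.76 RPKM) and Spred1 (15.2 ± 3.42 RPKM) followed it there, and these 2 means lay closer together than their SDs. Etv5 averaged 6.81 ± 2.29 RPKM and Spry4 4.11 ± 1.75 RPKM in the same wells. Spry1 (2.80 RPKM), Dusp4 (2.40 RPKM), Etv4 (1.26 RPKM) and Spred2 (1.08 RPKM) were the lowest. In embryo RFP+ wells the order began with Dusp6 at 57.3 ± 4.33 RPKM and Etv5 at 26.4 ± 5.72 RPKM (SD, n = 4), ahead of Spry2 at 14.6 ± 3.90 RPKM and Spred1 at 13.3 ± 5.32 RPKM. Etv5 thus stood below Spry2 and Spred1 in spheroid RFP+ wells and above both in embryo RFP+ wells. These orders describe means and were not tested.

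**Figure D1:**
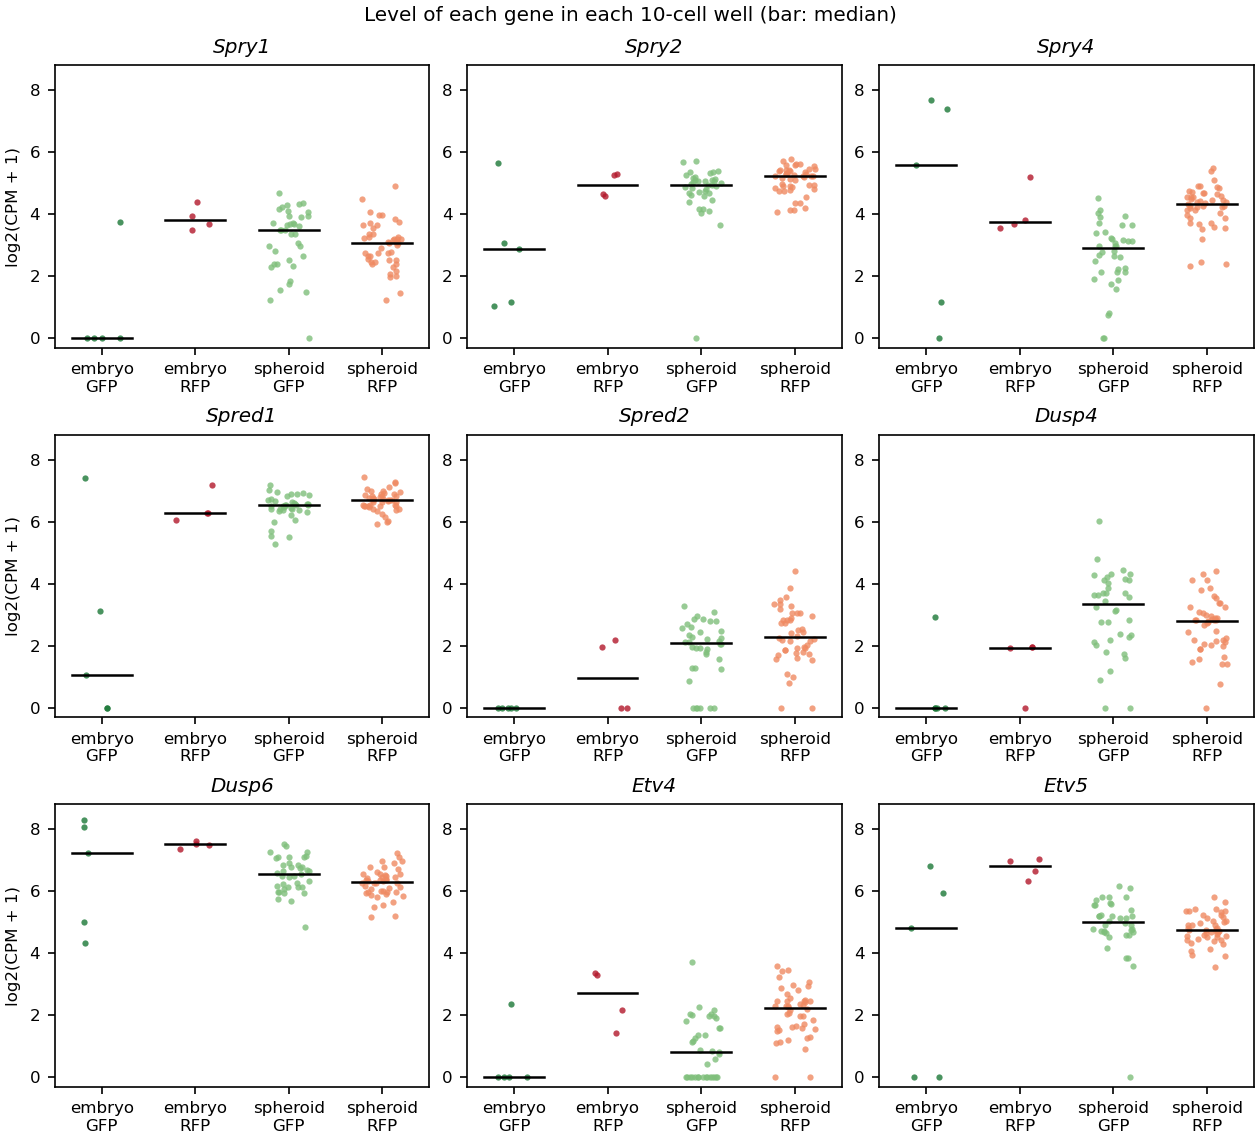
Level of each of the 9 genes in each 10-cell well, as log2(CPM + 1) on the vertical axis, for the 4 groups on the horizontal axis, with points for wells and bars for medians. The 5 embryo GFP+ wells are scattered from 0 upwards for most genes, while the 4 embryo RFP+ wells lie close together for Dusp6, between 161 and 194 CPM.

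How many of the 9 genes had at least 1 read in a well differed between groups. Embryo GFP+ wells had reads on 3 to 6 of them and embryo RFP+ wells on 7 to 9. All 9 were detected in 41 of 46 spheroid RFP+ wells and in 19 of 38 spheroid GFP+ wells. Etv4 was the gene most often missing from spheroid GFP+ wells, at 0 in 15 of 38. The shallow spheroid well C9 held reads for 2 of the 9 (Spred1 and Dusp6, 1 each), and it is the well behind the lowest values of 0 CPM given below for Spry1, Spry2 and Etv5 in spheroid GFP+ wells. A count of 0 allows a level of up to 1.30 to 3.72 CPM in the embryo GFP+ wells (3 counts over the scaled depth of each well, counting error only), so Spred2, Dusp4 and Etv4 lay near the limit of detection in embryos.

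**Figure D2:**
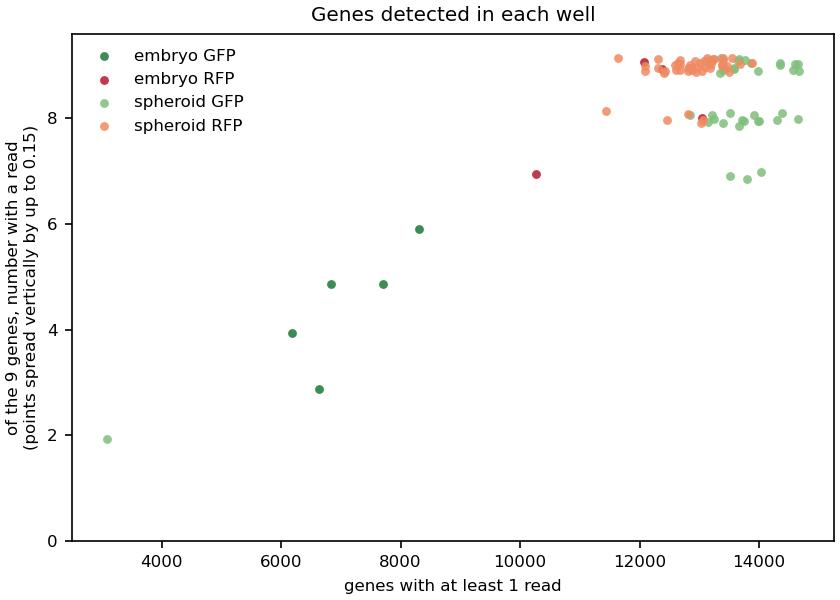
Number of the 9 genes with a read in each well (vertical axis, points spread slightly) against the number of all genes with a read (horizontal axis), coloured by group. The 5 embryo GFP+ wells (3 to 6 of the genes) lie to the left of every embryo RFP+ well, and the point at 2 genes is the spheroid well C9.

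The first comparison asked how these genes differ between the 2 heart field populations in vivo. No member was called at an adjusted p below 0.1 by edgeR's quasi-likelihood test among the 6 that passed the filter on low counts, against 10.1% of the 8503 genes tested. None had an unadjusted p below 0.05 either, and DESeq2 called none, with no adjusted p for Spry1 and Spred1. Every member's CPM ranges overlapped between the populations, where 17.3% of tested genes had ranges that did not. The fitted log2 changes had wide intervals, the narrowest being that of Dusp6 (95% interval -1.45 to 1.82). The median of the 6 was 1.23 (RFP+ over GFP+) against 0.09 over all genes.

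Among the Sprouty genes, Spry1 (chr3:37639947-37644598, plus strand), an inhibitor of receptor signals to RAS, had 12.5 CPM in embryo GFP+ well B12 and no read in the other GFP+ wells (A12, C12, D12 and E12). Its RFP+ wells held 10.2 (F12), 12.0 (G11), 14.3 (G12) and 20.1 CPM (H11). Every RFP+ well was thus above 4 of the 5 GFP+ wells, and the fitted log2 change was 2.36 ± 1.55 (SE, adjusted p = 0.585). Spry2 (chr14:105891947-105896819, minus strand), which restrains the same step, held 1.08, 7.35, 1.24, 49.0 and 6.42 CPM in GFP+ wells A12 to E12 and 24.0, 38.0, 37.1 and 22.9 CPM in RFP+ wells F12, G11, G12 and H11. Only GFP+ well D12 exceeded the RFP+ wells, and the log2 change was 1.197 ± 1.363 (adjusted p = 0.835).

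Spry4 (minus strand), the third Sprouty gene, showed the opposite pattern of levels. GFP+ wells A12 to E12 held 165.8, 47.6, 1.24, 206.4 and 0 CPM. RFP+ wells held 13.1, 12.0, 35.5 and 10.8 CPM in the same well order as before. GFP+ wells thus lay on both sides of all the RFP+ wells, 3 above and 2 below, and the log2 change was -2.24 ± 1.52 (adjusted p = 0.605).

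Spred1 (chr2:117121374-117182279, plus strand), a membrane-bound inhibitor of RAS activation, reached 167.4 CPM in GFP+ well C12 but 1.08 CPM in A12, 7.79 CPM in B12 and 0 in D12 and E12. Its RFP+ wells held 64.9, 77.3, 76.0 and 144 CPM. Except for C12, GFP+ wells were far below every RFP+ well, and the log2 change was 1.25 ± 1.63 (adjusted p = 0.871). Spred2 (chr11:19924375-20024026, plus strand), its relative, had no read in any GFP+ well and 3.51 and 2.87 CPM in RFP+ wells G11 and H11, with 0 in F12 and G12. This member was below the filter, and an exact two-sided permutation test over the 126 splits of the wells gave p = 0.167.

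Of the phosphatases, Dusp6 had reads in every embryo well. GFP+ wells A12 to E12 held 150.7, 266, 31.0, 313 and 19.3 CPM, and RFP+ wells held 180, 194, 161 and 183 CPM. The GFP+ wells straddled the narrow RFP+ range, with a log2 change of 0.18 ± 0.69 (adjusted p = 0.973). Dusp4 (chr8:34807297-34819894, plus strand), a nuclear phosphatase of ERK, had 14 reads (6.54 CPM) in GFP+ well D12 and none in the other GFP+ wells, against 4, 4, 0 and 4 reads in the RFP+ wells (p = 0.444, exact two-sided permutation test, below the filter).

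Of the ETS factors, Etv5 held 26.9, 111, 0, 0 and 59.9 CPM in GFP+ wells A12 to E12 and 131, 79.4, 99.6 and 123 CPM in the RFP+ wells. All RFP+ wells except G11 and G12 exceeded the highest GFP+ well, and the log2 change was 1.41 ± 1.37 (adjusted p = 0.781). Etv4 (chr11:101769742-101785371, minus strand), its paralog, had 9 reads in GFP+ well D12 and none in the other GFP+ wells, with 12, 5, 2 and 13 reads in the RFP+ wells. The difference in mean log2 CPM was 1.94, higher in RFP+ wells (p = 0.0317, exact two-sided permutation test, not adjusted over genes), and with no filter edgeR gave an adjusted p of 0.353.

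**Figure D3:**
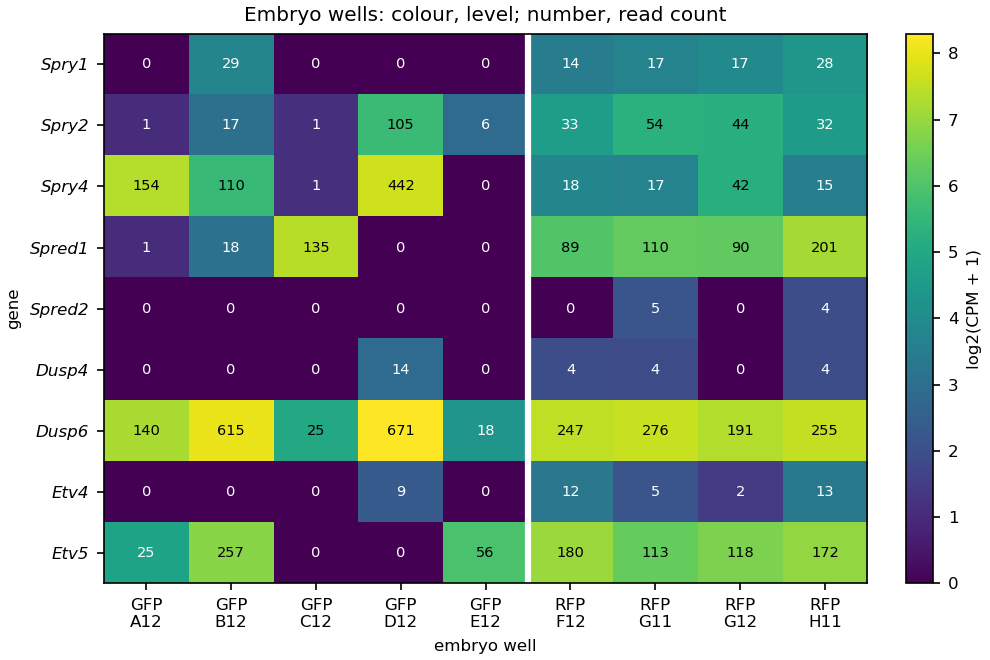
The 9 genes (rows) in the 5 GFP+ and 4 RFP+ embryo wells (columns), with log2(CPM + 1) as colour and the read count as number. Zeros fall in different GFP+ wells for different genes, such as D12 and E12 for Spred1 and C12 and D12 for Etv5, while among RFP+ wells only Spred2 and Dusp4 have zeros.

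The spread between embryo wells differed between the populations in size. The coefficient of variation (SD over mean) of the 6 members tested ran from 0.855 to 2.24 in embryo GFP+ wells (median 1.37) and from 0.0756 to 0.662 in embryo RFP+ wells (median 0.285). Over all 8503 genes tested the medians were 1.02 and 0.342, so the wider spread in GFP+ wells was shared with the other genes. Likewise 60.4% of all tested genes had no read in at least 1 GFP+ well and 5.97% in at least 1 RFP+ well, against 4 and 0 of the 6 members. The lower number of genes detected in GFP+ wells moved with these zeros, and its part in them was not tested. Single wells decided calls. Without GFP+ well B12, Spry1 was called (adjusted p = 0.0108), but all remaining GFP+ wells were at 0 and it passed the filter only through RFP+ wells. Without C12, Spred1 was called (log2 change 5.20, adjusted p = 0.0614), again passing the filter only through RFP+ wells. When each group was given its own spread (limma-voom with group weights), Spry1 (3.95, adjusted p = 0.0186), Spred1 (4.54, adjusted p = 0.0361) and Etv5 (3.77, adjusted p = 0.0831) were called higher in RFP+ wells, where the median of all genes was itself 1.29. These 3 genes had reads in 1, 3 and 3 of the 5 GFP+ wells and passed the filter only with the RFP+ wells. Their calls are therefore no support for a change. In wells of 10 cells, fewer cells expressing a gene and less RNA per cell cannot be told apart.

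In spheroids all 7 members that passed the filter were called, 3 higher and 4 lower in RFP+ than in GFP+ wells, where 77.9% of 9940 genes were called (37.8% higher and 40.1% lower). The share of members called was therefore read against a comparison in which most genes passed. Spry4 stood out in size. The other 6 called members changed by less than a log2 of 0.8.

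Spry4 rose from a median of 6.48 CPM in GFP+ wells (0 to 21.9) to 19.2 CPM in RFP+ wells (4.04 to 43.7). Of the RFP+ wells, 93.5% lay above the GFP+ median, although the ranges overlapped, and the log2 change was 1.40 ± 0.19 (SE, adjusted p = 2.3e-10). Spry2 ran from 0 to 51.6 CPM (median 29.8) in GFP+ wells and from 15.9 to 54.5 CPM (median 36.6) in RFP+ wells, with a log2 change of 0.19 ± 0.10 (adjusted p = 0.0823). Spry1 went the other way, from a median of 10.3 CPM (0 to 24.9) in GFP+ wells to 7.37 CPM (1.34 to 29.3) in RFP+ wells, a log2 change of -0.36 ± 0.19 (adjusted p = 0.0809). The 3 Sprouty genes thus did not share a direction between spheroid populations. Spred1 had medians of 91.4 CPM in GFP+ (38.0 to 142.8) and 102.8 CPM in RFP+ wells (60.1 to 171.3), a log2 change of 0.14 ± 0.08 (adjusted p = 0.0856). The calls of Spry1, Spry2 and Spred1 did not hold at a threshold of 0.05, nor with a spread of their own for each group (adjusted p from 0.104 to 0.148). With the RFP+ wells of plate columns 3 and 4 summed, which are near-identical in 7 rows of the plate, Spry1 (0.165) and Spry2 (0.158) were no longer called either.

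Both phosphatases were lower in RFP+ spheroid wells. Dusp4 fell from a median of 9.12 CPM (0 to 63.6, the highest in well C8) to 6.01 CPM (0 to 20.5), a log2 change of -0.79 ± 0.25 (adjusted p = 0.0041). With group weights its change was -0.42 (adjusted p = 0.198), which ended the call. Dusp6 fell from 93.7 CPM (28.0 to 182.8) to 77.8 CPM (35.3 to 147.7), by -0.34 ± 0.10 (adjusted p = 0.00235). Etv5 fell by the same size, from 31.1 CPM (0 to 70.7) to 25.8 CPM (10.9 to 54.8), a log2 change of -0.34 ± 0.12 (adjusted p = 0.00785). Dusp6 and Etv5 kept these calls with group weights.

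Etv4 and Spred2 were under the filter in spheroids. Etv4 had a median of 0.771 CPM (0 to 12.1) in GFP+ and 3.71 CPM (0 to 10.9) in RFP+ wells, with reads in 23 of 38 and 44 of 46 wells. The difference in mean log2 CPM was 1.07, higher in RFP+ wells (p = 1e-05 in a two-sided permutation test with 100000 resamples, the smallest they can give). Etv4 and Etv5, paralogs with related roles, thus differed in direction between the populations. Spred2 had medians of 3.24 CPM (0 to 8.64) and 3.85 CPM (0 to 20.2), a difference of 0.44 in mean log2 CPM (p = 0.0250, same test). Neither p is adjusted over genes, and in DESeq2 the adjusted p-values were 8.9e-05 for Etv4 and 0.0688 for Spred2.

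**Figure D4:**
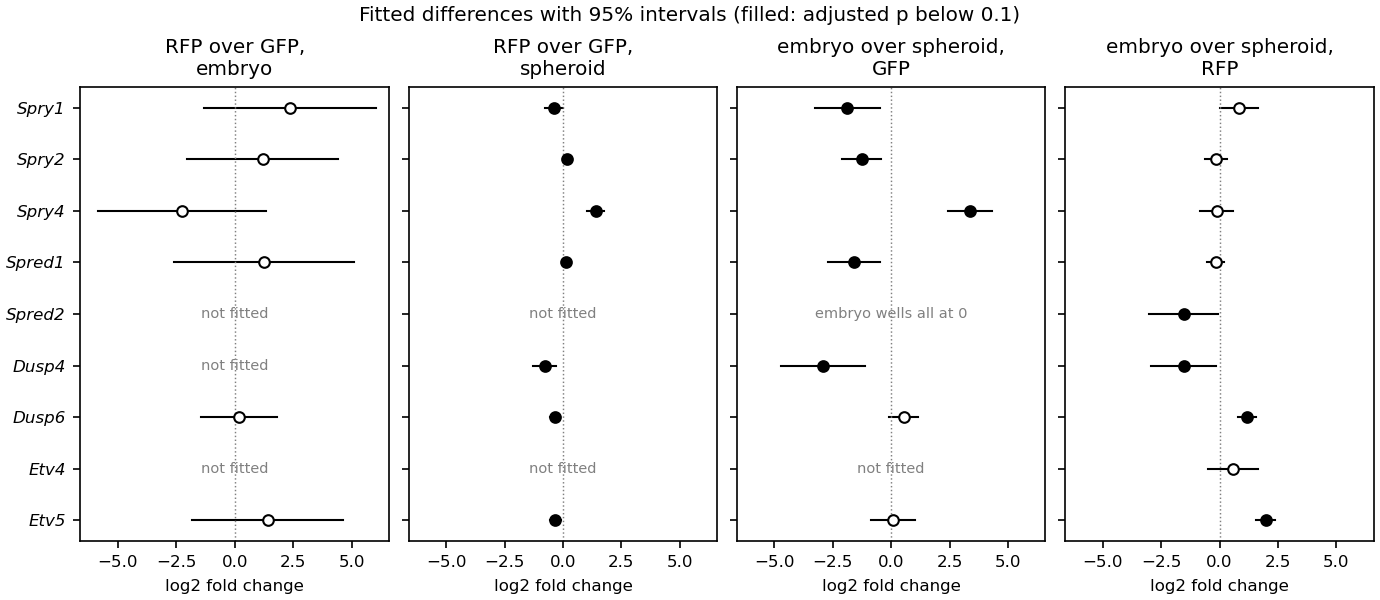
Fitted log2 fold changes (horizontal axis) with 95% intervals for each gene (rows) in the 4 comparisons, filled where the adjusted p was below 0.1. Intervals are widest between embryo populations, and Spry4 in GFP+ cells (3.37) and Etv5 in RFP+ cells (1.97) lie farthest to the right between embryo and spheroid.

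The spheroid populations also differed in genes outside the pathway. Immediate early genes, a class that cell dissociation and ERK itself can switch on, summed to 440 to 1820 CPM (median 1388) in GFP+ wells and 173 to 588 CPM (median 318) in RFP+ wells, and 9 of the 11 that were tested fell and 2 rose in RFP+ wells. Atf3 (log2 change -3.37 ± 0.21), Jun (-2.48 ± 0.14) and Klf6 (-2.32 ± 0.09) fell the most. Endoderm and epithelial genes (14, led by the keratins Krt18 and Krt8) summed to 1247 to 6911 CPM in GFP+ and 172 to 1461 CPM in RFP+ wells. The keratins carry that sum, and of the 7 endoderm genes tested 4 fell (Krt18, Krt8, Epcam and Cldn6) and 3 rose in RFP+ wells (Cer1, Foxa2 and Trh). Foxa2 averaged 2.28 CPM in GFP+ wells and passed the filter only through RFP+ wells, so its call is no support for a change. The 11 pluripotency genes, led by Dppa5a, summed to 99.2 to 1895 and 9.50 to 659 CPM, and 6 of the 7 tested fell. All 14 endoderm and all 11 pluripotency genes had reads in both populations. In the shallow GFP+ well C9, 1 read equals 73.3 CPM, so the lowest sums of GFP+ wells can rest on few reads. These sums moved with the lower Dusp4, Dusp6 and Etv5 levels of RFP+ wells, and their part in those differences was not tested.

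In GFP+ cells, 6 of the 8 members that passed the filter were called between embryo and spheroid, 1 higher and 5 lower in embryos, against 68% of 11822 genes called (19.7% higher and 48.3% lower). All genes had a median log2 change of -0.67, and of -0.22 under another scaling (DESeq2 size factors), and the members' values include that shift. Spry4 rose with a log2 change of 3.37 ± 0.47 (adjusted p = 2.6e-08), from a spheroid mean of 7.03 ± 4.97 CPM (SD, n = 38) to an embryo mean of 84.2 ± 96.1 CPM (SD, n = 5). As given above, 3 embryo wells exceeded every spheroid GFP+ well (up to 21.9 CPM) and 2 held 0 and 1.24 CPM. The change was 2.67 without well D12, and with a spread for each group it was 2.21 and no longer called (adjusted p = 0.190).

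Spry1 (-1.88 ± 0.68, adjusted p = 0.015), Spry2 (-1.27 ± 0.41, adjusted p = 0.00637), Spred1 (-1.59 ± 0.54, adjusted p = 0.00978) and Dusp4 (-2.91 ± 0.89, adjusted p = 0.00401) fell. In each, 1 embryo well held most of the reads. Without it, Spry2 (without D12) stood at -2.91 and Spred1 (without C12) at -5.14, while Spry1 (without B12) and Dusp4 (without D12) had no read left in embryos. Spred2 had no read in any embryo GFP+ well and a mean of 3.34 ± 2.27 CPM (SD, n = 38) in spheroids, 1.30-fold above 3 counts in each embryo well (counting error only). It passed the filter only through its spheroid reads, so its place among the 5 lower members rests on that filter and is no support for a change. The same limit holds for Spry1 and Dusp4, which had reads in 1 embryo GFP+ well each. Under DESeq2 size factors Spred1 was not called (-0.96, adjusted p = 0.115).

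Dusp6 was higher in the embryo mean, 156.1 ± 133.4 CPM against 97.73 ± 35.98 CPM, without passing the test (0.53 ± 0.31, adjusted p = 0.137). It passed under DESeq2 size factors (0.89, adjusted p = 0.00743) and without well C12 (0.81) or E12 (0.87). Etv5 had close means, 39.6 ± 47.0 and 33.7 ± 15.3 CPM (0.08 ± 0.47, 95% interval -0.86 to 1.03, adjusted p = 0.892). Etv4, under the filter, was 0.840 ± 1.88 CPM in embryos and 1.45 ± 2.17 CPM in spheroids (p = 0.335, two-sided permutation test with 100000 resamples). With group weights, Spred1 alone was called among the 8 members, where 2291 of 11822 genes passed. The embryo GFP+ wells were also those with 20654 to 57325 CPM of cardiomyocyte genes, of which 14 of 15 tested were higher in embryos. Pluripotency genes (9 of 10 tested), endoderm genes (7 of 7) and immediate early genes (10 of 14) were lower in embryos, and the median number of genes detected was 6830 in embryo and 13689 in spheroid GFP+ wells. In embryo GFP+ wells 3 of 11 pluripotency, 3 of 14 endoderm and 12 of 20 immediate early genes had any read. Those without one that were tested passed the filter only through spheroid wells, so their calls are no support for a change. These gene classes and the number of genes detected ran together with the 5 lower members, and their part in the member differences was not tested.

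In RFP+ cells all 9 members passed the filter and 4 were called between embryo and spheroid, 2 higher and 2 lower in embryos, against 42.6% of 11147 genes (20.1% higher and 22.5% lower). Dusp6 and Etv5, the genes whose upstream sequences are printed above, rose. Etv5 held 79.4 to 131 CPM in the 4 embryo wells and 10.9 to 54.8 CPM (median 25.8) in the 46 spheroid wells, so the groups did not overlap, and the log2 change was 1.97 ± 0.20 (3.92-fold, adjusted p = 1.7e-12). Dusp6 held 161 to 194 CPM in embryo wells and 35.3 to 147.7 CPM (median 77.8) in spheroid wells, again without overlap, with a log2 change of 1.19 ± 0.19 (2.28-fold, adjusted p = 8.4e-07). Such non-overlap was seen in 4.55% of the 11147 genes. Leaving out any embryo well kept both calls, with changes from 1.87 to 2.10 for Etv5 and from 1.15 to 1.23 for Dusp6.

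Dusp4 was lower in embryos, at 2.15 ± 1.43 against 6.59 ± 4.74 CPM (log2 change -1.54 ± 0.68, adjusted p = 0.0717), and so was Spred2, at 1.59 ± 1.86 against 5.01 ± 3.79 CPM (-1.54 ± 0.74, adjusted p = 0.0985). Embryo RFP+ wells held at most 4 reads of Dusp4 and 5 of Spred2. Both genes passed the filter only through spheroid wells, so their calls are no support for a change. Both calls were lost at a threshold of 0.05, with no filter, with group weights and without embryo well G12 (adjusted p = 0.23 for Dusp4 and 0.278 for Spred2). Dusp4 was also lost without G11 (0.102) or H11 (0.1001), and Spred2 without F12 (0.287), under DESeq2 size factors (0.105), in a robust fit (0.103) and with the wells of columns 3 and 4 summed (0.112). Spry1 missed the threshold, at 14.1 ± 4.30 against 8.14 ± 5.18 CPM (0.83 ± 0.40, adjusted p = 0.101), and was called under DESeq2 size factors (adjusted p = 0.0867) and without F12 (0.0957). Spry2 (-0.17 ± 0.24), Spry4 (-0.12 ± 0.36), Spred1 (-0.17 ± 0.17) and Etv4 (0.58 ± 0.54) had adjusted p-values from 0.422 to 0.822, and of these Spred1 was called without well H11 (-0.49, adjusted p = 0.0524). Their 95% intervals reached from -0.64 to 0.31 for Spry2, -0.84 to 0.59 for Spry4, -0.52 to 0.18 for Spred1 and -0.50 to 1.66 for Etv4. Endothelial genes, which mark vessel cells, summed to 273 to 679 CPM in embryo and 6.84 to 300.4 CPM in spheroid RFP+ wells, with all 13 detected in both, and cardiomyocyte genes to 1311 to 2495 and 26.5 to 161 CPM, with all 16 detected in both. Both sums moved with Dusp6 and Etv5, and their part was not tested.

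Over the 4 groups, Spry4 ran from embryo GFP+ (84.2 CPM) over spheroid RFP+ (19.5) and embryo RFP+ (17.8) to spheroid GFP+ (7.03). The middle pair did not differ beyond its spread. This is an order of means. The 2 embryo populations did not pass the test, 2 of the 5 embryo GFP+ wells held 0 and 1.24 CPM, and embryo GFP+ against spheroid RFP+ wells was not tested. Etv5 was highest in embryo RFP+ wells (108 CPM), with embryo GFP+ (39.6), spheroid GFP+ (33.7) and spheroid RFP+ wells (27.9) below. Of its neighbouring pairs, the 2 GFP+ groups did not pass the test and neither did the 2 embryo groups. Dusp6 had the same order, from 179 CPM in embryo RFP+ over 156 in embryo GFP+ and 97.7 in spheroid GFP+ to 79.6 in spheroid RFP+ wells, and of its neighbouring pairs the 2 spheroid groups passed the test. For Spred2 and Dusp4 both spheroid means exceeded both embryo means. Spred1 averaged 103 CPM in spheroid RFP+, 90.6 in spheroid GFP+, 90.5 in embryo RFP+ and 35.2 in embryo GFP+ wells. Spry1 (14.1 CPM) and Etv4 (5.81 CPM) had their highest means in embryo RFP+ wells and Spry2 (34.7 CPM) in spheroid RFP+ wells, and all 3 had their lowest in embryo GFP+ wells.

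Whether the RFP+ to GFP+ difference itself differed between embryo and spheroid was tested by subtracting the spheroid log2 change from the embryo one and dividing by the combined error of both fits (t distribution, 7 degrees of freedom). Of the 6 members with both values none was called, against 5.26% of 8182 genes. The Spry4 difference, -2.24 in embryos and 1.40 in spheroids, came closest (difference -3.64 ± 1.53, unadjusted p = 0.0495, adjusted p = 0.398), the only member of the 6 with an unadjusted p below 0.05. For the other 5 the difference lay between 0.53 and 2.73 with adjusted p-values from 0.622 to 0.920. Spry1 was called without GFP+ well B12 (adjusted p = 0.0483). That left no Spry1 read in embryo GFP+ wells, so the gene entered the embryo fit only through RFP+ wells. The call is therefore no support for a difference between sources.

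The remaining genes of the pathway were described from lists drawn up for this purpose. Their counts stand against 6.21% of all genes higher and 3.88% lower in embryo RFP+ wells, and 37.8% higher and 40.1% lower in spheroid RFP+ wells. Genes with no read in any embryo GFP+ well passed the filter only through the RFP+ wells, which had reads on more genes, so their calls are no support for a change in the lists. The same holds for Sdc4, Sos2 and Fli1, named below. Their embryo GFP+ means of 0.214, 0.0865 and 0.431 CPM were too low to pass the filter. In spheroids the same limit holds for Fgf17, Flrt2 and Tbx6, also named below, with GFP+ means of 1.90, 2.80 and 1.74 CPM. It holds for Lif as well, with a spheroid RFP+ mean of 1.28 CPM. Of 18 FGF ligands, 2 had reads in embryo GFP+ wells, 9 in embryo RFP+ wells, 18 in spheroid GFP+ and 17 in spheroid RFP+ wells. Their summed level was 0 to 74.4 CPM in embryo GFP+ and 62.5 to 124 CPM in embryo RFP+ wells. In embryos none of the 2 tested was called. In spheroids 2 of 3 rose in RFP+ wells, Fgf17 (2.33 ± 0.39, 1.90 to 10.4 mean CPM) and Fgf10 (1.13 ± 0.19, 16.2 to 37.2 mean CPM), a ligand of the second heart field.

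Receptors and co-receptors summed higher in embryo GFP+ (2210 to 4293 CPM) than in embryo RFP+ wells (1236 to 1956), and Gpc3 alone averaged 2363 and 902 CPM there. Of 13 tested in embryos, Gpc3, which encodes a heparan sulfate proteoglycan, fell in RFP+ wells (-1.44 ± 0.27, adjusted p = 0.00665) and the syndecan Sdc4 rose from 0.214 to 32.01 CPM (adjusted p = 0.0172). In spheroids 9 of 13 rose and 3 fell. Flrt2 rose (3.45 ± 0.24), a call that rests on the filter as said above, and Sdc4 fell from 182 to 46.0 CPM (-2.04 ± 0.09). Sdc4 was thus called in opposite directions in the 2 sources (adjusted p = 0.0408 for the difference between sources). Its embryo call rests on the filter, as said above, so this is no support for a reversal.

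Of the RAS to ERK cascade, Sos2, an exchange factor of RAS, rose in embryo RFP+ wells (0.0865 to 13.8 CPM, adjusted p = 0.00901) and the other 20 tested were not called. In spheroids 10 rose and 7 fell of 23, among them Mapk3, which encodes ERK1 (1.16 ± 0.07, from 48.8 to 114 CPM), Map2k1, which encodes MEK1 (0.63 ± 0.08), and the adaptor Gab1, which fell from 266 to 64.7 CPM (-2.08 ± 0.10). The median over the cascade was 0.03, close to that of all genes (-0.02).

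The next list held 26 other regulators of the pathway, not all of them inhibitors. Of 16 tested, 3 were called higher in embryo RFP+ wells and none lower, 2 of them with no read in GFP+ wells. Dusp14, a further phosphatase, had no read in embryo GFP+ wells and 84.7 ± 30.3 CPM (SD, n = 4) in RFP+ wells. This was 32.9-fold above a level of 3 counts in each GFP+ well, a floor that covers counting error only. Map4k1 was likewise 4.398-fold above that floor, and Pebp1, which encodes the RAF kinase inhibitor protein, rose from 78.5 ± 29.7 to 401 ± 49.1 CPM (2.31 ± 0.39, adjusted p = 0.00313). In spheroids 6 of 19 rose and 9 fell, with Cblb (1.39 ± 0.11) up and Lgals3 (-3.37 ± 0.19) down. Dusp14 (-1.03 ± 0.27) and Map4k1 (-1.81 ± 0.18) were lower in spheroid RFP+ wells. Their embryo direction rests on the filter, as said above, so no reversal between sources is drawn from it.

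Of 24 other genes that respond to ERK, 3 of 14 were called higher in embryo RFP+ wells and none lower. All 3 had no read in GFP+ wells. These were Gbx2, Ets2 and Trib1, at 20.3, 19.9 and 17.4 CPM on average in RFP+ wells. With each GFP+ well set to 3 counts, the folds were 7.88, 7.73 and 6.76, which cover counting error only. As said above, these calls are no support for a change. In spheroids 13 of 18 rose and 5 fell, with a median log2 change of 0.65 against -0.02 over all genes. Tbx6 (2.61 ± 0.27), Mycn (2.16 ± 0.10) and the mesoderm factor T (1.68 ± 0.24) rose, while Plaur (-3.01 ± 0.24), Lif (-2.96 ± 0.30) and Bhlhe40 (-2.81 ± 0.20) fell. The calls of Tbx6 and Lif rest on the filter, as said above. Of 13 other ETS factors, Fli1, known in endothelium and blood, rose in embryo RFP+ wells (0.431 to 41.8 CPM, adjusted p = 0.0408), where endothelial genes summed to 273 to 679 CPM against 3.23 to 95.6 in GFP+ wells. In spheroids all 5 ETS factors tested fell, including Elf1 (-1.91 ± 0.13), Elf3 (-1.87 ± 0.20) and Ets1 (-0.68 ± 0.14).

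Between embryo and spheroid GFP+ wells, the calls of these lists were mostly lower in embryos, as were those of all genes. Of the ligands, 4 of 5 tested fell and none rose, and of the other regulators 12 of 22 fell and 1 rose. Of the cascade, 10 of 24 fell and 5 rose, and of the other ERK-responsive genes 11 of 19 fell and 3 rose. Receptors and co-receptors had 7 of 15 higher and 5 lower. In embryo GFP+ wells, 2 of 18 ligands, 20 of 26 other regulators and 14 of 24 other ERK-responsive genes had any read. Genes without one that were tested passed the filter only through spheroid wells. Their calls lower in embryos are therefore no support for a change. Between embryo and spheroid RFP+ wells, 7 of 13 receptors and co-receptors rose and 1 fell. There, 4 of 23 cascade genes rose and 7 fell, and 4 of 20 other regulators rose and 6 fell. Of the other ERK-responsive genes, 3 of 18 rose and 7 fell. The same limit holds there for genes with no read in embryo RFP+ wells.

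Within each spheroid population the 9 genes showed weak correlations from well to well. Over 83 wells of at least 100000 reads, with each population centred on its own mean, the 36 pairs had Pearson correlations of log2 CPM from -0.22 to 0.30, with a median of 0.06. Spry4 with Etv4 was the highest (0.30, and 0.28 and 0.33 within GFP+ and RFP+ wells alone), then Spred1 with Dusp6 (0.29) and Spred1 with Spred2 (0.26). Dusp6 with Etv5 stood at 0.14 (-0.01 in GFP+ and 0.33 in RFP+ wells). The wells share plate, depth range and low counts, and these values are given as a description only. Among 9940 genes, those most like each member had r of at most 0.51, with Cables2 for Spry4 (0.51) and Pik3r4 for Spred2 (0.50) at the top. Each is the highest of 9940 values, for which no chance level was worked out, so no link is drawn from it. Dppa5a, a pluripotency gene, was the gene most like Etv5 (0.48). The first for the others were Rap1b for Spry1 (0.44), Rap2b for Spry2 (0.42), Zfp280c for Spred1 (0.43), Tmem185b for Dusp4 (0.41), Etaa1 for Dusp6 (0.43) and Ascc1 for Etv4 (0.43).

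**Figure D5:**
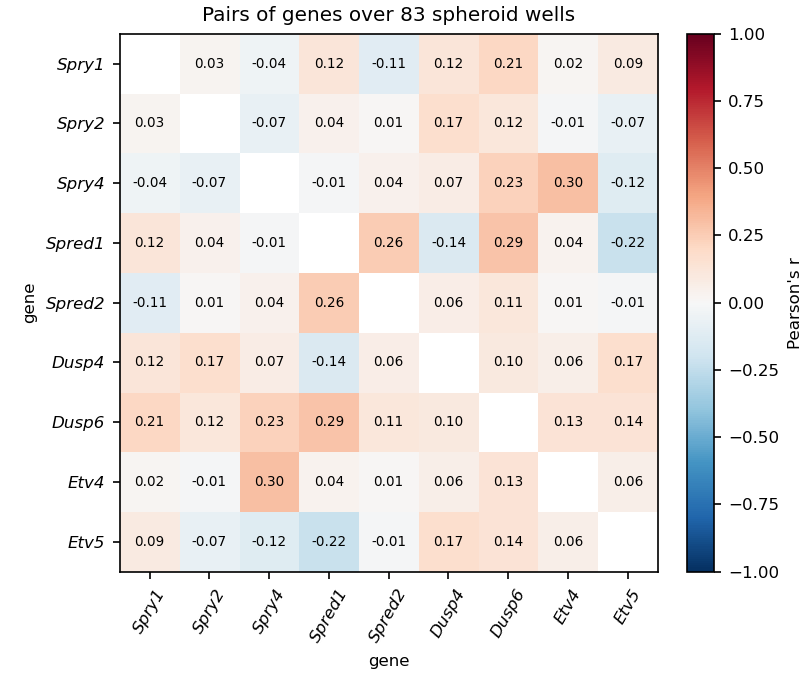
Pearson's r of log2 CPM for each pair of the 9 genes (rows and columns) over 83 spheroid wells, centred within populations, on a colour scale from -1 to 1. Values run from -0.22 for Spred1 with Etv5 to 0.30 for Spry4 with Etv4, so most cells are pale.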

How the data were processed

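RNA from 93 wells of 10 sorted cells was reverse transcribed, amplified and sequenced. The authors trimmed reads with Trimmomatic 0.36, mapped them to mm10 with HISAT2 2.0.4 and deposited whole read counts per gene from featureCounts 1.5.2, without normalization. Reads carry no molecular identifiers, so limits cover counting error only. No column of the table was without a sample (0 unmapped).

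Groups came from the sample titles. Counts were tested in R 4.3.3 with edgeR 4.0.16 (TMM, filterByExpr with minimum count 10, minimum total 15 and proportion 0.7, quasi-likelihood F-test), in a separate fit for each comparison, over all genes, with Benjamini-Hochberg adjustment and a threshold of 0.1. Limma 3.58.1 and DESeq2 1.42.0 were alternatives. SE is the log2 change over the square root of F. Members under the filter were tested by permutation of log2 CPM values (prior count 2). Exon lengths and positions are from GENCODE M21 (GRCm38, the assembly of mm10). In 7 plate rows the RFP+ wells of columns 3 and 4 were near-identical (chi-square per degree of freedom 1.33 to 2.29, against at least 2.61 for the other pairs), above sampling noise, and they were kept as separate wells. The scripts were tested on simulated data. No member overlaps another gene of the table in the annotation. The 9 genes and the lists were chosen with earlier results of these data known. Named genes are all 9 members, up to 3 called genes per direction and list with the largest change between populations in each source, of which the text gives a part, and the genes most correlated with each member.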

Additional observations from a re-analysis of the deposited data

Results flagged for a closer look

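In 8 of the 17 sets of embryo wells examined (each member in each population, where any read was present), the highest or lowest well stood apart from the rest of its group by more than Dixon's 95% critical value, where chance flags about 1 in 20. That rate does not apply to a gene with reads in 1 well only (Spry1, Dusp4 and Etv4 in GFP+ wells), for which the gap always equals the range. In GFP+ wells these were Spry1 in B12 (12.5 CPM, others at 0), Spry2 in D12 (49.0 CPM, others 1.08 to 7.35), Spred1 in C12 (167.4 CPM, others 0 to 7.79), Dusp4 in D12 (6.54 CPM, others at 0) and Etv4 in D12 (4.20 CPM, others at 0). In RFP+ wells they were Spry4 in G12 (35.5 CPM, others 10.8 to 13.1), Spred1 in H11 (144 CPM, others 64.9 to 77.3) and Dusp4 in G12 (0 CPM, others 2.81 to 2.91). D12 was the well that stood apart for 3 of the 5 in GFP+ cells, and held 2267669 reads, against 712732 to 2525460 in the group.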

How the results depend on the processing

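Spry4, Dusp6 and Etv5 in spheroids, and Dusp6 and Etv5 in RFP+ cells between sources, were called in every alternative run for them. At a threshold of 0.05 the members called were 4 in spheroids and 2 in RFP+ cells between sources. With a spread for each group (limma-voom) they were 3 in embryos, 3 in spheroids, 1 in GFP+ and 2 in RFP+ cells between sources. The 3 in embryos passed the filter only with RFP+ wells, as said above. With no filter 2 were called in RFP+ cells. Leaving out single embryo wells gave 0 to 1 calls in embryos, 0 to 1 for the difference between sources and 2 to 4 in RFP+ cells. Some uncalled changes turned sign. Etv5 in GFP+ cells was -2.30 with a spread for each group and -0.85 to 0.42 without single wells, Dusp6 between embryo populations -0.10 to 0.58, and Spry4 in RFP+ cells -0.70 to 0.058. The cause was not tested. Scaling by DESeq2 size factors, the DESeq2 test, a robust fit, plate row as a covariate, leaving out well C9 and summing near-identical wells kept the counts of calls within 1.5 times, though not every call (Spred2 in RFP+ cells, for example, was lost in 3 of them). No paired analysis was possible because the groups share no replicate numbers. Members at a few reads per embryo well could not be compared closely at this depth.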
